A study of Mus musculus with 2 samples.

Results

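The 7 genes described here encode enzymes of heme synthesis, namely Alas1, Alad, Uros, Urod, Cpox, Ppox and Fech. They were chosen by name from 19938 genes measured in mouse liver, and each was represented by the array probe with the highest mean level over both arrays. All 7 had exactly 1 probe named by a single gene symbol. The group was proposed because the value of Alas1 was already known, so its size is a description and no test was made.

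Liver RNA of wild-type mice was set against that of mice labelled FHL2-/-, homozygous knockouts of the LIM-domain protein gene Fhl2. Both pools came from the left liver lobe of male mice aged 10 to 11 weeks on a hybrid Black Swiss/129-SV/J background. RNA of 3 mice was combined into each pool and each pool was read on 1 array. The groups thus have no replicates, no error between mice can be given, and differences hold for these pools. Fhl2 itself read 5.30 in wild-type and 5.33 in FHL2-/- liver on the log2 scale, from 1 probe whose position relative to the targeted part of the gene is not given in the sources used here. Both values lay under 5.44, the level filter applied further on, so the probe was dim in both pools. That probe does not check the genotype, so FHL2-/- below names the label of the pool.

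Heme is an iron-containing ring that cells build in a chain of enzymes starting and ending in the mitochondrion. In liver the first step, joining glycine and succinyl-CoA to aminolevulinic acid, is made by ALAS1 and limits the rate, while developing red blood cells use the related enzyme ALAS2. Heme lowers the amount of ALAS1, and drugs and fasting raise its transcript. Much of the heme made in hepatocytes goes into cytochrome P450 enzymes, and inherited defects of the later enzymes cause the porphyrias.

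The stretch upstream of Alas1 is shown because this gene had the large difference. The RefSeq promoter table for GRCm38.p6 gives Alas1 2 start sites 224 bases apart. The 250 bases before the upstream start site, on the minus strand at chr9:106247955-106248204, read as follows, with the match to a GC box (GGGCGG on either strand) in capitals.
Alas1 upstream: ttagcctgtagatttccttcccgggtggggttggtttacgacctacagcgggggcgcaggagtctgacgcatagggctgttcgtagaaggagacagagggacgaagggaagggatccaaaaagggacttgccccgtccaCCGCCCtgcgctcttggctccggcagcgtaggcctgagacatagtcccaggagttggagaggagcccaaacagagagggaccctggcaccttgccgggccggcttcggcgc

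Short sites are shown to compare the members that hold the same letters. Capitals mark the motif of nuclear respiratory factor 1, encoded by Nrf1, which regulates nuclear genes of mitochondrial function. It was searched on both strands as GCGCA, any base and GCGC. Each site has 30 bases in the direction of its gene. The Alas1 sites lie on the minus strand at chr9:106247935-106247964 and chr9:106247906-106247935, and the Uros site on the minus strand at chr7:133709323-133709352.
Alas1 first site: gcttcggcgcGCGCGTGCGCgcggcaggcc
Alas1 second site: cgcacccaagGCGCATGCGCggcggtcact
Uros site: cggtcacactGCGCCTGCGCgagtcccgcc

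The first base of the Alas1 matches was at 1 and 30 downstream of the upstream start site, which is 224 and 195 bases before the downstream one. In Uros, whose product closes the ring of the first porphyrin precursor, the match began 47 bases before its start site. The promoter table gives windows of 250 bases before to 50 after a start site, 9 of them for 6 members. The motif was in 3 of these 9 windows, both of Alas1, which overlap and share the 2 sites, and 1 of Uros, and in 4.60% of all 32851 windows. A match describes letters and shows no binding.

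The E-box CACGTG, to which the clock proteins CLOCK and BMAL1 bind, was found in 4 of the 9 windows, of 3 genes, and in 7.15% of all windows. It is printed for Alad and Urod, which encode an early and a later cytosolic step, again in capitals on the minus strand, at chr4:62520151-62520180 and chr4:116994445-116994474. The first base lay 105 bases before a start site of Alad and 49 before that of Urod.
Alad: gctccgaatgccCACGTGgaccccctcggg
Urod: cactggatcggtCACGTGgttctcaatatg

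Uros held the E-box letters too, 250 bases before its start site, and the second Alad window held another match. Alas1 had no match to CACGTG in its windows, so its windows and those of Alad and Urod did not share this motif. The GATA letters AGATAA, bound by the red cell factor GATA1, were in 1 of the 9 windows, that of Cpox, starting 5 bases after its start site, and in 11.2% of all windows. The red cell gene Alas2, which is no member, also held them, 86 bases before its start site. GC boxes were in 6 of the 9 windows, of 5 genes, against 35.7% of all windows, and neither the nuclear receptor element AGGTCA (16.3% of windows) nor its direct repeat with 1 base between (0.0396%) was in a member's window.

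Alas1 was higher in the FHL2-/- pool, while the enzymes after it were close to their wild-type levels. Its level was 9.25 in wild-type and 10.55 in FHL2-/- liver on the log2 array scale. The log2 difference, FHL2-/- minus wild-type, was 1.29, a 2.45-fold higher value. The only repeat measurement in these data is that of several probes for 1 gene, whose differences had an SD of 0.143 on the log2 scale over 660 genes. The Alas1 difference was 9.05 times this SD, which takes in the error of probes but not that of mice or hybridisations. Alas1 has 1 probe, so the SD comes from other genes. It was also chosen with its value known, so this ratio describes size and is no test.

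**Figure D1:**
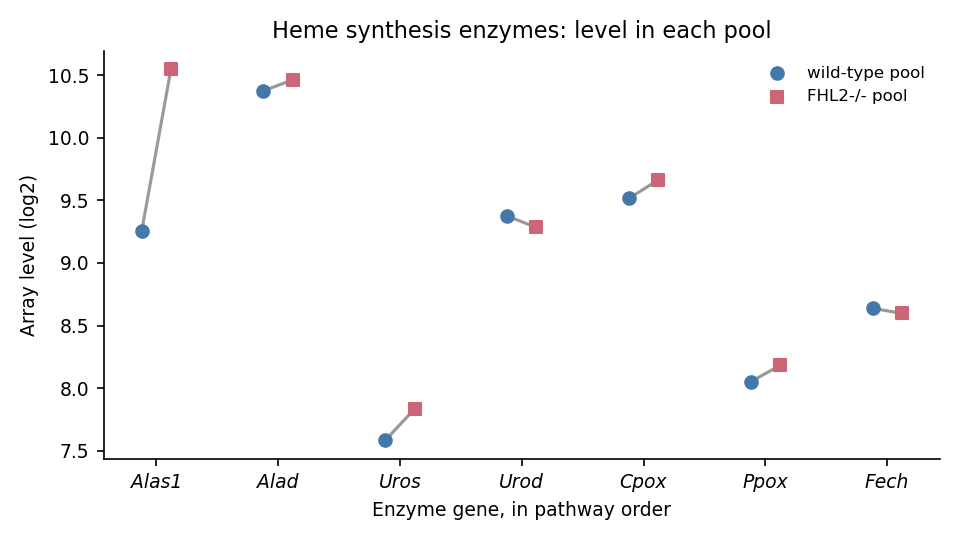
Level of the 7 enzyme genes in pathway order on the log2 array scale, with a circle for the wild-type pool and a square for the FHL2-/- pool, 1 array each and no error bars. Alas1 goes from 9.25 to 10.55, and the lines of the other genes are short. Heights of different genes come from different probes and are not comparable.

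Counted by fold, 1 of the 7 enzymes was at least 1.5-fold higher, against 0.621% of the 11924 genes past a level filter, and 0 were at least 1.5-fold lower, against 0.335%. The filter kept genes whose mean level reached 5.44, the 40th percentile of named probes, and all 7 enzymes passed it. Alas1 was chosen with this contrast known, so its count says nothing about the group. At 2-fold the count was still 1, Alas1, against 0.0923% of all genes. In the order of differences over all genes past the filter Alas1 was number 4 from the highest.

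The cytosolic steps come next. Alad, the zinc enzyme that joins 2 aminolevulinic acid molecules, read 10.38 in wild-type and 10.46 in FHL2-/- liver, a difference of 0.09. Uros, the synthase that makes uroporphyrinogen III, read 7.58 and 7.83, a difference of 0.25. Among the 6 enzymes after Alas1 this was the largest difference, at 1.19-fold. Over all genes past the filter 9.71% were at least as far above 0 as Uros, so such a size was common on these arrays.

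Urod, which removes carboxyl groups from uroporphyrinogen and is deficient in porphyria cutanea tarda, read 9.38 in wild-type and 9.28 in FHL2-/- liver. Its difference of -0.09 was the lowest of the 7. A difference at least as far below 0 was seen in 21.9% of all genes.

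The last 3 steps lie in or at the mitochondrion. Cpox, the coproporphyrinogen oxidase of the intermembrane space, read 9.52 and 9.66, a difference of 0.15. Ppox, the inner-membrane oxidase that makes protoporphyrin, read 8.05 and 8.18, a difference of 0.13. Fech, the ferrochelatase that inserts iron, read 8.64 and 8.60, a difference of -0.04, or 0.00092 with the array medians made equal. These steps therefore lay within 1.11-fold of wild-type, far below the 2.45-fold of Alas1, which is also a mitochondrial enzyme.

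**Figure D2:**
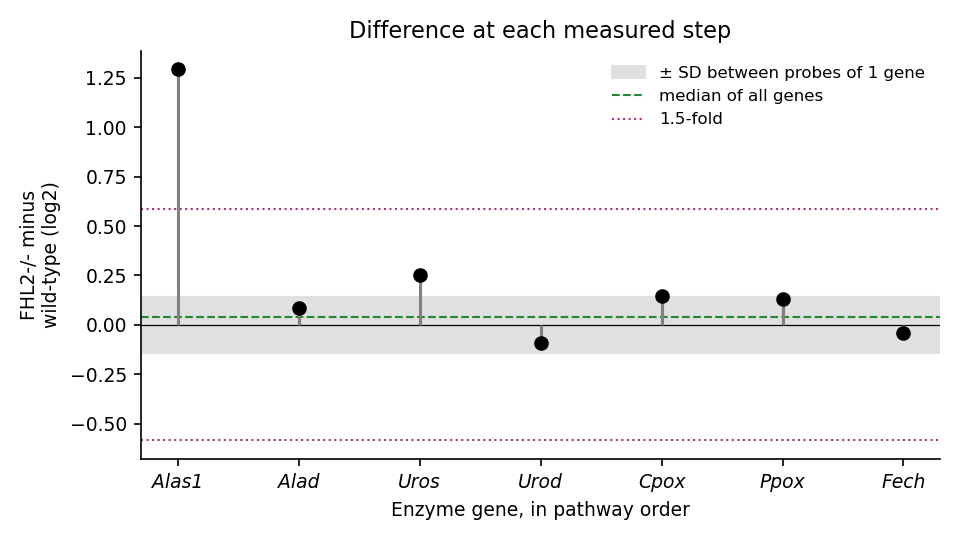
FHL2-/- minus wild-type difference (log2) at each measured step of heme synthesis, 1 point per gene. The grey band is plus and minus the 0.143 SD between probes of a gene, the dashed line the median of all genes at 0.04 and the dotted lines 1.5-fold. Alas1 lies at 1.29, above the upper dotted line, and the other 6 points lie between -0.09 and 0.25.

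Differences within the 0.143 SD between probes were found for 4 of the 7 enzymes, Alad, Urod, Ppox and Fech, and for 59.7% of all genes past the filter. Cpox, at 0.148, lay just outside. Above 0 were 5 of the 7 (71.4%), against 59.5% of all genes. The median of the 7 was 0.13 and that of all genes 0.04. Without Alas1 the median of the remaining 6 was 0.11, with 4 of the 6 above 0. From the median of these 6 to Alas1 the gap was 1.19 on the log2 scale, or 2.27-fold. The gap from Uros, the next highest, was 1.04. No enzyme other than Alas1 reached 1.2-fold, a size reached by 8.66% of all genes upwards and 6.16% downwards. With the array medians made equal, however, Uros was at 0.29, which is past 1.2-fold.

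**Figure D3:**
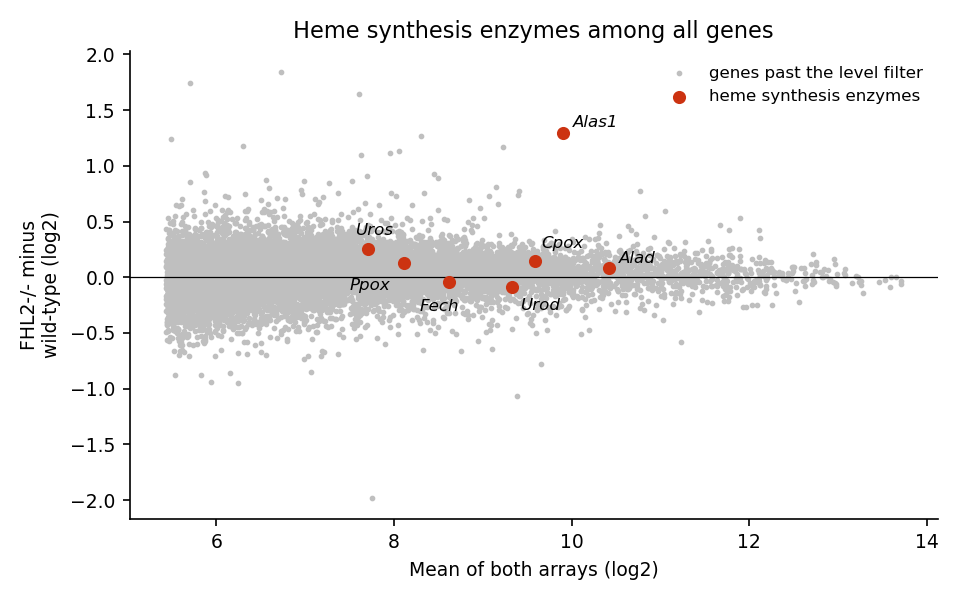
Difference (FHL2-/- minus wild-type, log2) against the mean of both arrays (log2) for the 11924 genes past the level filter in grey and the 7 enzymes in red. Alas1 stands at 1.29, number 4 from the highest of the genes drawn, and the other enzymes lie inside the dense cloud.

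The genes nearest to Alas1 in the order of differences over the 2 arrays were the 3 above and the 3 below it. Onecut1, a liver-enriched transcription factor, was closest, 0.03 below Alas1 on the log2 scale. Zfp42, a stem cell zinc finger gene, was 0.05 below and Meg3, an imprinted noncoding RNA, 0.12 below. Lcn2, which binds iron-carrying siderophores, was 0.35 above, the sperm calcium-binding protein gene Cabyr 0.45 above and Mfsd2a, a lysophospholipid transporter, 0.55 above. Zfp42 and Cabyr lay below the filter level of 5.44 in wild-type liver, at 4.87 and 4.84, so the sizes of their differences and their places in the order are uncertain. With 1 array in each pool, likeness here means only a similar difference.

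The red cell counterpart Alas2 read 9.60 in wild-type and 9.89 in FHL2-/- liver, a difference of 0.29. That is 1.23-fold, against 2.45-fold for Alas1. In 6.59% of all genes the difference was at least as far above 0. Of 19 red cell markers, globins included, 10 had a probe with a single symbol and 4 passed the level filter. Their summed linear level was 1080 in wild-type and 1230 in FHL2-/- liver, of which Alas2 itself was 775 and 950. The other 9 measured markers summed to 305 and 280, and of these only Klf1, Slc4a1 and Ermap passed the filter. That sum thus rests mostly on dim probes. Klf1, a red cell transcription factor, was at 0.27, while the anion exchanger gene Slc4a1 was at -0.13 and the membrane protein gene Ermap at -0.28, and the factor gene Gata1 lay below the filter at -0.69. The globin genes are named only on probes shared between several genes and were not used. The part of blood cells in the Alas2 difference was not tested, and in bulk tissue fewer cells and less RNA per cell cannot be told apart.

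Liver identity was checked with 13 hepatocyte markers, of which 12 were measured and all 12 passed the filter. Their summed linear level was 104166 in wild-type and 102783 in FHL2-/- liver, and their median difference was -0.03. Albumin, Alb, read 13.74 and 13.67. Kupffer cells, the liver macrophages that recycle heme from old red cells, had 11 measured markers with a summed level of 3296 and 2873, a median difference of -0.27 and 1 of 11 above 0, against 59.5% of all genes. Median differences were 0.12 for 6 sinusoidal endothelial, 0.15 for 3 bile duct and -0.08 for 6 stellate cell markers past the filter, and B cell and neutrophil markers had 1 each past it. The part of any of these cells in the Alas1 difference was not tested.

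Lists of genes around the pathway are read against all genes past the filter, of which 59.5% were above 0, 59.7% lay within the SD between probes, 0.621% were at least 1.5-fold higher and 0.335% at least 1.5-fold lower. At such shares a count of 0 past 1.5-fold in a short list says nothing about that list. Genes that carry heme precursors, iron and heme or handle the first enzyme in the mitochondrion numbered 20. Of these 18 passed the filter, 14 of them (77.8%, against 59.5% of all genes) above 0, with a median of 0.09 and 0 past 1.5-fold (0.621% higher and 0.335% lower of all genes). The SD between probes took in 10 of the 18 (55.6%, against 59.7% of all genes). Slc25a37, the mitoferrin that brings iron into mitochondria, read 6.70 in wild-type and 7.13 in FHL2-/- liver, a difference of 0.43, and the heme-binding membrane protein gene Pgrmc2 was at 0.30. The heme exporter gene Flvcr1 was at -0.32 on its brighter probe and 0.17 on its other probe, so its direction is uncertain. Slc25a38, the glycine carrier that feeds ALAS1, was at 0.15.

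Proteins that act on ALAS1 after translation include the mitochondrial proteases LONP1 and CLPXP. Lonp1 was at 0.0049 and Clpx, whose product also helps load the ALAS cofactor, at -0.18. The protease subunit gene Clpp was at 0.09. All 3 differences were far smaller than that of Alas1, but only 0.0335% of all genes were at least as far above 0 as Alas1. Their sizes therefore say nothing particular about these 3 genes, whose part in the Alas1 difference was not tested.

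Heme breakdown genes numbered 5, of which 4 had a named probe, and all 4 were above 0, against 59.5% of all genes, with a median of 0.18. Within the SD between probes was 1 of the 4 (25%, against 59.7% of all genes). Hmox1, the inducible heme oxygenase, read 7.20 and 7.52, a difference of 0.32. The constitutive oxygenase gene Hmox2 was at 0.08 and the biliverdin reductase genes Blvra and Blvrb at 0.20 and 0.17.

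Supply of the ALAS1 substrates was read from 12 genes of glycine and succinyl-CoA metabolism, all past the filter. Their median was 0.02, or -0.0015 once the trend of the difference on level was removed. Within the SD between probes lay 11 of the 12, against 59.7% of all genes. The succinyltransferase gene Dlst was at 0.16, the oxoglutarate dehydrogenase gene Ogdh at 0.14 and the succinyl-CoA synthetase gene Suclg2 at 0.13.

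Regulators known to act on Alas1 transcription numbered 20, and 18 passed the filter with a median of 0.17. Above 0 were 12 of the 18 (66.7%, against 59.5% of all genes). Only 4 of the 18 lay within the SD between probes (22.2%, against 59.7% of all genes). The xenobiotic receptor genes Nr1i2 (PXR) and Nr1i3 (CAR) were at 0.23 and 0.18. Nrf1 read 6.30 and 6.57, a difference of 0.27. Its coactivator gene Ppargc1a, encoding PGC-1alpha, was at -0.07 on its brighter probe and -0.06 on the other, and Foxo1, a factor active in fasting, was at -0.20.

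The lowest values among these regulators were those of a clock gene and an immediate-early gene. Arntl, which encodes the clock protein BMAL1, read 8.29 in wild-type and 7.79 in FHL2-/- liver, a difference of -0.51. Egr1, the immediate-early factor, was also at -0.51. The heme-binding repressor genes Nr1d1 and Nr1d2 (REV-ERBs) were at 0.24 and 0.18, their partner Hdac3 at 0.29 and the deacetylase gene Sirt1 at 0.30. Over all 14 clock genes past the filter the median was 0.17, or 0.08 with the filter at the 60th percentile. Of these 14, 4 lay within the SD between probes (28.6%, against 59.7% of all genes). Arntl, Clock, Nr1d1 and Nr1d2 are also in the regulator list, so the shares of both lists are not separate observations. Above 0 were 9 of the 14 clock genes (64.3%, against 59.5% of all genes). Past 1.5-fold on the higher side were 2 of the 14 (0.621% of all genes), the output factor Dbp at 0.76 and the repressor Bhlhe40 at 0.73. The clock gene Cry1, at -0.50, was nearly as low as Arntl. Alas1 transcript follows the time of day in liver, and neither time of collection nor feeding state is given in the labels. Their part in the Alas1 difference was not tested.

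Targets of CAR and PXR, which drugs induce together with Alas1, gave 10 genes past the filter with a median of 0.10. Of the 10, 5 (50%, against 59.7% of all genes) lay within the SD between probes. At least 1.5-fold higher was 1 of the 10, against 0.621% of all genes. That gene, the cytochrome Cyp2b10, read 6.25 and 6.91, a difference of 0.66. The sulfotransferase gene Sult1d1 was at 0.31 and the glutathione transferase gene Gstt1 at 0.22, while the PXR target Cyp3a11 was at -0.14. Fasting and PGC-1alpha targets gave 9 genes with a median of 0.22. Of these, 7 (77.8%, against 59.5% of all genes) were above 0, and 1 was at least 1.5-fold higher (0.621% of all genes), the lipase inhibitor gene Angptl4 at 0.64. Just 1 of the 9 lay within the SD between probes (11.1%, against 59.7% of all genes). The glucose-6-phosphatase gene G6pc was at 0.53 and Pck1, of gluconeogenesis, at 0.42, whereas Igfbp1 was at -0.29 and Pdk4 at -0.24. These targets thus included values on both sides of 0.

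Hepatic proteins that hold heme were near all genes in their median, share above 0 and share within the SD between probes, but not in the share past 1.5-fold. Of 22 past the filter, 12 were above 0 (54.5%, against 59.5% of all genes), 13 lay within the SD between probes (59.1%, against 59.7%) and the median was 0.04, as for all genes, or 0.02 with the filter at the 60th percentile. Cat, catalase, was at 0.04, the tryptophan dioxygenase gene Tdo2 at -0.00090 and the cytochromes Cyp2e1 and Cyp1a2 at 0.05 and -0.00070, while Cyp3a11, also of this list, was at -0.14. At least 1.5-fold higher were 2 of the 22, against 0.621% of all genes, the steroid hydroxylase Cyp17a1 at 0.80 and Cyp2b10, which is shared with the CAR list. Cyp7a1, the first enzyme of bile acid synthesis, was at 0.53 and is shared with the fasting list. The cytochrome c gene Cycs was at -0.31 on its brightest probe and at -0.08 and 0.47 on the others.

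Plasma carriers, which bring heme and hemoglobin back to the liver, numbered 6 and had a median of 0.06. Of the 6, 4 (66.7%, against 59.7% of all genes) lay within the SD between probes. Hemopexin, Hpx, read 13.19 in wild-type and 13.20 in FHL2-/- liver. Haptoglobin, Hp, was at 0.09, and the receptor genes Lrp1 and Cd163 were at 0.20 and 0.24.

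**Figure D4:**
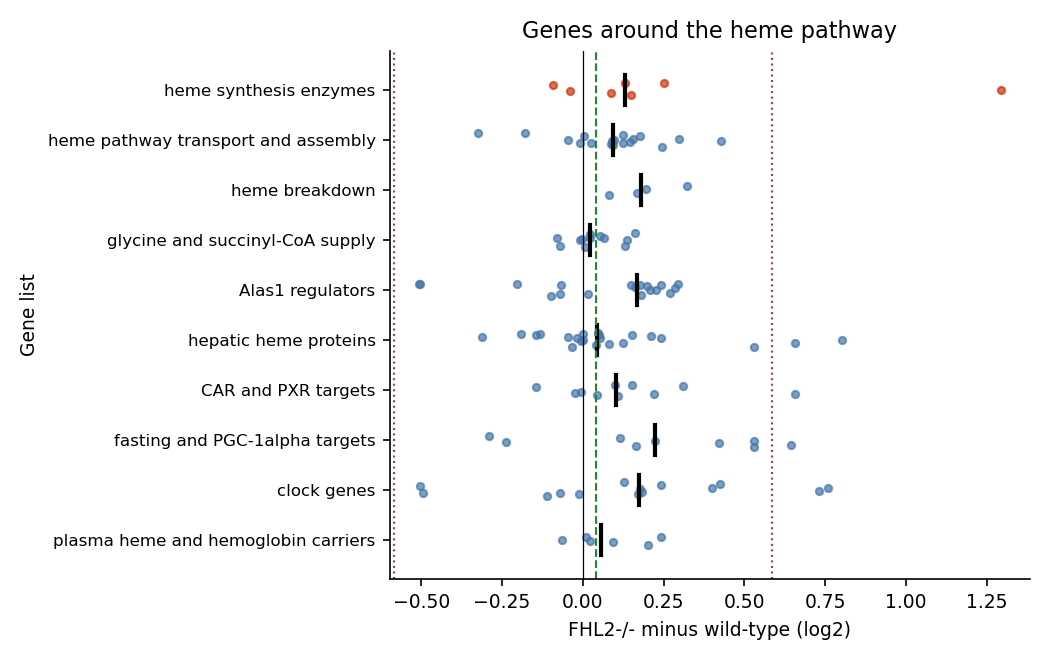
Difference (FHL2-/- minus wild-type, log2) of each gene past the level filter in the heme synthesis enzymes, in red, and in 9 lists of genes around the pathway, in blue, with a black bar at each median. The dashed line is the median of all genes at 0.04 and the dotted lines mark 1.5-fold. Alas1 at 1.29 lies to the right of every other point drawn, and the medians lie between 0.02 and 0.22.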

How the data were processed

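The authors deposited log2 expression values, 1 for each probe set on each array. Per the submitters' processing notes, Affymetrix Expression Console 1.0, RMA and Partek 6.4 were used, with no role given, and the genome build is not given in the sources used here. The RMA method brings arrays to a common distribution and compresses differences of dim transcripts, and with no detection call and 2 arrays the precision is limited. Of 28853 probes, 21789 had 1 symbol in the platform annotation, 1621 several and 5443 none, and only the first were named. The RefSeq table of GRCm38.p6 held 21698 of them by Entrez identifier, with 0 symbols different.

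With Python 3.11.15 and pandas 2.3.3, the brightest probe stood for each gene. The difference is FHL2-/- minus wild-type, unscaled, and no test was possible. The SD between probes used 1809 probes of 660 genes. Steps were tested on simulated data. Named genes are the 7 enzymes, Alas2, the 3 neighbours on each side of Alas1, members of the lists past 1.5-fold, the 3 farthest from 0 per list, and fixed regulators. Others were named after their values were seen. The members and lists were chosen with earlier results of these data known. Promoters are from RefSeq, with 6 of the 7 members matched. The alternatives are named with their effect in the closing section.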

Additional observations from a re-analysis of the deposited data

How the results depend on the processing

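Alternatives were equal array medians (the shift), a lowess correction of the difference for level (span 0.3), averaging a gene's probes, dropping the level filter, setting it to percentile 60 (6.69), the median without Alas1, the mean over the enzymes and thresholds of 1.2-fold and 2-fold. All 80 values so obtained for the enzymes and the 9 lists around them stayed within the 0.143 SD between probes of the reported value, or, for counts, within 1.5 times. Alas1 was 1.33 after the shift and 1.26 after lowess. The mean over the 7 enzymes was 0.25. The 1.2-fold count used the unscaled differences only, and Uros passed that threshold at 0.29 after the shift. A change of sign was seen for Fech (0.00092 after the shift) and the substrate supply list (-0.0015 after lowess), both next to 0. The shift adds 0.04 to every difference, which is less than the 0.143 limit, and the mean of probes cannot move an enzyme with 1 probe. All 7 enzymes lay above 6.69 on both arrays, so no filter setting could change their median or count. Part of the 80 values was therefore bound to stay the same. No paired analysis was possible because each group has 1 array, and for the same reason no replicate could be left out.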

Other observations

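Set among genes of similar level, a comparison chosen after the values were seen, Alas1 had the largest positive difference. Within 0.5 on the log2 scale of its mean level there were 853 other genes past the filter, and 0 of them were as far above 0. Over all genes past the filter that share was 0.0335%. Alas1 was picked with its difference known, as number 4 of 11924, so a top place here was close to fixed and is no support. The next was Slc25a25, a mitochondrial carrier of adenine nucleotides, at 0.77. That gap depends on the window, since the equally wide window around the somewhat dimmer Urod held Saa2 at 1.17. The median of these 853 was 0.04.

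The dim cytochrome Cyp2b9, a CAR target known to be higher in female liver, lay below the level filter with 4.68 in wild-type and 5.72 in FHL2-/- liver, which is 1.03 higher. The clock repressor Bhlhe41, also below the filter, was at 0.61.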
